A study of Mus musculus with 8 samples.

Results

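The proteasome and immunoproteasome subunit genes were followed here in mouse liver RNA. The members were the gene rows whose symbol is Psma, Psmb, Psmc, Psmd, Psme, Psmf or Psmg followed by a number, with nothing after it. That rule found 48 of the 35204 genes in the table. All 48 had a mean of at least 10 normalised counts over the 8 libraries and were tested, among 14171 genes tested in all. A further 6 rows begin with Psm but fall outside the rule (4 pseudogenes, Psmc3ip and Psme2b) and were not used as members.

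Poly-A RNA was sequenced from pieces of liver in 2 groups of C57BL/6J mice, all given the genotype Wild type. The control group (n = 3) had no treatment. The TAZ-CCl4 group (n = 5) received EF1a-TAZS89A by HTVI, which stands for hydrodynamic tail vein injection, and the liver toxin CCl4 30 times, 3 times a week over 10 weeks. TAZ is the Wwtr1 product, a coactivator held back by the Hippo pathway, S89A removes an inhibitory phosphorylation site, and EF1a is a promoter active in most cell types. The controls received neither the injection nor the toxin, so the vector, the injection procedure and CCl4 cannot be told apart. The labels give no ages, do not say which piece of liver was taken, and do not spell out separate mice, and the p-values therefore speak only to the spread among libraries, part of which may be technical. The labels also place the controls and the TAZ-CCl4 libraries in different sequencing projects, and project and treatment cannot be told apart.

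The proteasome is the chief protease of the cytosol and nucleus. Its 20S core is a barrel of stacked rings, with alpha subunits at the ends that gate entry and beta subunits in the middle, some of which carry the proteolytic sites. A 19S cap of ATPases and non-ATPase subunits binds ubiquitin-tagged proteins, unfolds them and feeds them into the core, and together they form the 26S proteasome. The catalytic beta subunits Psmb5 (beta5), Psmb6 (beta1) and Psmb7 (beta2) have the interferon-inducible counterparts Psmb8 (beta5i), Psmb9 (beta1i) and Psmb10 (beta2i), which replace them in the immunoproteasome. That form is abundant in leukocytes and favours peptides suited to MHC class I. Hepatocytes hold mostly the constitutive form and take up the inducible subunits during inflammation.

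Proteasome genes respond to different transcription factors, and 3 stretches upstream of catalytic subunits show the kind of letters those factors recognise. They are shown because the contrast between the constitutive and inducible catalytic subunits is the main comparison. They are RefSeq sequence on GRCm38.p6 (the mm10 build), 5′ to 3′ in the direction of the gene, with the motif match in capitals. TGACNNNGC is the core of the antioxidant response element, bound by NRF1 (Nfe2l1) and NRF2 with small MAF proteins, and TTCNNNGAA is the GAS element of genes that respond to interferon gamma.
Psmb5, chr14:54618024-54618052, minus strand: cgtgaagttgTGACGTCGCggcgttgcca
Psmb6, chr11:70525338-70525366, plus strand: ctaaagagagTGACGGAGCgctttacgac
Psmb8, chr17:34198088-34198116, plus strand: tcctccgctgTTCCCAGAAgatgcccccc
The matches lie 47 to 39 bases before the RefSeq start of Psmb5, 9 to 1 bases before that of Psmb6 and 97 to 89 bases before that of Psmb8. The Psmb8 stretch falls within a UTR of another annotated Psmb8 transcript. Among the 40 members with a RefSeq window of 250 bases before the start, 5 held TGACNNNGC on either strand (Psmb5, Psmb6, Psmc6, Psmd9 and Psmd12), beside 11.5% of all genes with a window. TTCNNNGAA, which reads the same on both strands, stood in the windows of Psmb8 and Psmg1, beside 8.13% of all genes. The interferon-stimulated response element, searched on both strands, stood in the windows of Psmb3, Psmd4 and Psmd9 and in none of the immunoproteasome subunits that have a window, beside 3.46% of all genes. A match describes the letters only.

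The label check came first. Wwtr1 had 463, 358 and 280 normalised counts in the control libraries, and 9021, 4339, 5114, 4892 and 5299 after TAZ-CCl4, with no overlap. The deposited values carry unequal library totals, from 29.8 to 35.1 M for control libraries but only 12.4 to 14.2 M for TAZ-CCl4. Major urinary protein (Mup) genes took 10.6% to 24.1% of the control totals and 0.00647% to 0.139% of the TAZ-CCl4 totals. Directions of change therefore depend on the scaling. At the deposited scaling 32.4% of all genes tested were higher and 29.8% lower in TAZ-CCl4, with a median log2 fold change of 0.03. With every library set to the same total, 76.3% were higher and 6.37% lower, and the median was 1.26. Counts of calls in the groups and lists below are to be read beside these shares. Results below are at the deposited scaling unless another is named, and ratios taken within a library do not depend on a single factor per library, though quantile normalisation, which bends the scale, does change them. Markers of cell types also changed. Of 12 hepatocyte markers 11 fell at the deposited scaling and 7 also at equal totals. Of 8 pan-leukocyte markers 7 rose, as did all 6 cholangiocyte markers, and each of these was higher at equal totals too.

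At the deposited scaling 37 of 48 members (77.1%) fell in TAZ-CCl4, where 29.8% of all genes tested fell, and 0 rose, while at equal totals 0 fell and 31 (64.6%) were higher, where 76.3% of all genes were higher. The median log2 fold change of the members was -0.72 at the deposited scaling and 0.53 at equal totals, in each case below the median of all genes. At the deposited scaling 45 of the 48 lay below that median. At the other scalings tried the counts were 12 higher and 6 lower at equal totals without the Mup and mitochondrial genes (all genes 62.9% and 10.7%), 1 and 32 at equal upper quartiles (38.6% and 23.4%) and 1 and 22 after quantile normalisation (27.8% and 29.8%). In 36 members every TAZ-CCl4 library was below every control, against 29.4% of all genes, and no member showed the opposite, as 30.7% of all genes did. The members' log2 fold changes spanned -1.49 (Psmd4) to 0.40 (Psmd10). The 11 members that did not pass were the immunoproteasome subunits Psmb8, Psmb9 and Psmb10, the tissue-restricted Psmb11 and Psma8, the cap subunit Psmd8, the assembly chaperones Psmd5, Psmd10, Psmg2 and Psmg4, and the nuclear activator subunit Psme3. In bulk tissue, fewer cells of a type and less RNA per cell cannot be told apart.

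**Figure D1:**
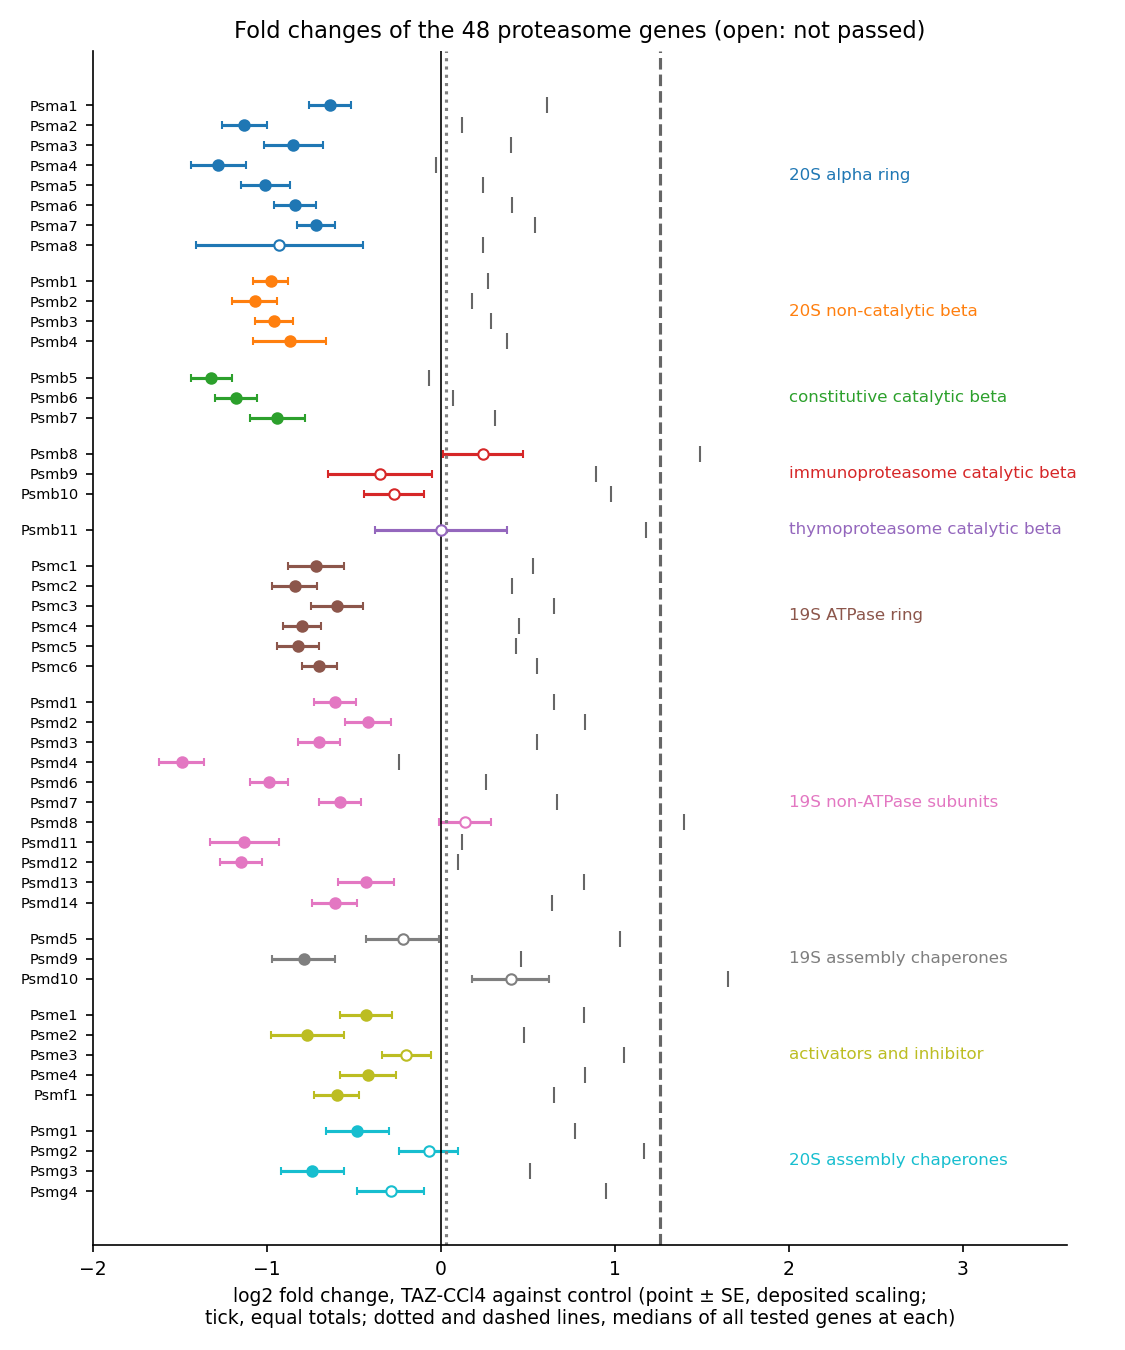
Log2 fold change of each of the 48 members, TAZ-CCl4 over control, grouped by role. Points with SE bars are at the deposited scaling (open where the gene did not pass), ticks are at equal totals, and the dotted and dashed lines are the medians of all genes at each (0.03 and 1.26). At the deposited scaling the points run from -1.49 (Psmd4) to 0.40 (Psmd10).

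In the alpha ring of the 20S core, 7 of 8 genes fell at the deposited scaling, with a median log2 fold change of -0.89, and at equal totals 3 were higher and 0 lower. Psma4, the alpha3 subunit, had 3692, 3706 and 3914 normalised counts in the controls and 1218, 1372, 1975, 1661 and 1656 in the TAZ-CCl4 libraries, which gave -1.28 ± 0.16 as log2 fold change (SE; adjusted p from limma 6.20e-05), and -0.03 at equal totals. Psma1, the alpha6 subunit, moved least of the 7 and went from 2094 ± 88.6 (SD, n = 3) to 1345 ± 150 (SD, n = 5), a log2 fold change of -0.64 that became 0.61 at equal totals. The groups did not overlap for either gene. Psma7 was the most even of the ring among controls, at 2649, 2631 and 2657, and stood at 1413 to 1701 in TAZ-CCl4. Psma8, the form of alpha4 used in the testis, was near the filter at 22.4 ± 9.06 in the controls and 11.3 ± 4.42 in TAZ-CCl4 and did not pass (adjusted p = 0.114).

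The 4 non-catalytic beta subunits, which complete the inner rings, all fell at the deposited scaling with a spread of only 0.08 (SD of the log2 fold changes) around a median of -0.97, and none passed at equal totals, where their median was 0.28. Psmb2 (beta4) went from 1745 ± 88.7 to 834 ± 109.0, a log2 fold change of -1.07, and Psmb4 (beta7) from 2728 ± 85.1 to 1541 ± 417.0, a log2 fold change of -0.87. Psmb4 was uneven among the TAZ-CCl4 libraries, at 1602, 1251, 2107, 1033 and 1713.

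The 3 constitutive catalytic subunits fell, with a median log2 fold change of -1.18 at the deposited scaling and 0.07 at equal totals, where none passed. With Mup and mitochondrial genes left out of the totals, Psmb5 (-0.49, adjusted p = 0.00434) and Psmb6 (-0.35, adjusted p = 0.0106) were still lower. Psmb7 (-0.11) did not pass there, and 10.7% of all genes tested were lower. Psmb5, the chymotrypsin-like beta5 site (chromosome 14, 54614119 to 54618022, mm10), had 2530, 2456 and 2482 normalised counts in the controls and 878, 909, 1056, 1064 and 1087 in the TAZ-CCl4 libraries. Its TAZ-CCl4 mean was 40.0% of the control level, with a log2 fold change of -1.32 ± 0.12 (adjusted p = 6.69e-06). Psmb6, the caspase-like beta1 site (chromosome 11, 70525367 to 70527858), had 3680, 3454 and 3762 in the controls and 1583, 1602, 1814, 1374 and 1643 in TAZ-CCl4, a log2 fold change of -1.18 ± 0.12 (adjusted p = 1.57e-05). In both genes the highest TAZ-CCl4 library was far below the lowest control. Psmb7, the trypsin-like beta2 site (chromosome 2, 38588036 to 38644087), had 3010, 2954 and 2822 in the controls and 1597, 1491, 1778, 1106 and 1748 in TAZ-CCl4, a log2 fold change of -0.94 ± 0.16 (adjusted p = 5.09e-04). At equal totals Psmb5, Psmb6 and Psmb7 stood at -0.07, 0.07 and 0.31. Psmb5 and Psmb6 are the genes of the TGACNNNGC stretches printed above.

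The 3 immunoproteasome subunits gave no call at the deposited scaling, and all were higher at equal totals. At equal totals 76.3% of all genes tested were higher too, with a median log2 fold change of 1.26. Psmb8 lay above that median, and Psmb9 and Psmb10 lay below it. With Mup and mitochondrial genes left out of the totals, Psmb8 (1.07) and Psmb10 (0.56) were higher and Psmb9 (0.47) did not pass. At that scaling 62.9% of all genes were higher, with a median of 0.85. Psmb8, the beta5i subunit (chromosome 17, 34197721 to 34201454), had 626, 595 and 461 normalised counts in the controls and 594, 438, 980, 634 and 761 in TAZ-CCl4, a log2 fold change of 0.24 ± 0.23 (adjusted p = 0.39) and of 1.49 at equal totals (adjusted p = 8.29e-05). The groups overlapped, with the third TAZ-CCl4 library highest and the second lowest. Psmb9, the beta1i subunit (chromosome 17, 34181987 to 34187764), had 388, 375 and 283 in the controls and 182, 207, 513, 262 and 283 in TAZ-CCl4, a log2 fold change of -0.35 ± 0.30 (adjusted p = 0.326), which was 0.89 at equal totals (adjusted p = 0.0114). Here the third library stood above all controls, the fifth was level with the lowest control, and the other 3 were below it. Without that library Psmb9 fell by 0.59 on the log2 scale (adjusted p = 0.0332). Psmb10, the beta2i subunit (chromosome 8, 105935735 to 105938444), had 642, 616 and 623 in the controls and 440, 393, 573, 630 and 600 in TAZ-CCl4, a log2 fold change of -0.27 ± 0.17 (adjusted p = 0.192) and of 0.98 at equal totals (adjusted p = 5.35e-04). The TAZ-CCl4 libraries reached into the control range only with the fourth library.

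Psmb9 overlaps the peptide transporter gene Tap1 by 212 bases on the opposite strand, and the strand setting of the authors' counting is not given in the sources used here, so reads in that overlap are not resolved. Psmb8 lies 0.495 kb from the other end of Tap1. Psmb11, the thymus form of the beta5 subunit, was near the filter at 20 ± 8.8 in the controls and 19.3 ± 4.28 in TAZ-CCl4, with a log2 fold change of 0.00 (adjusted p = 0.995).

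**Figure D2:**
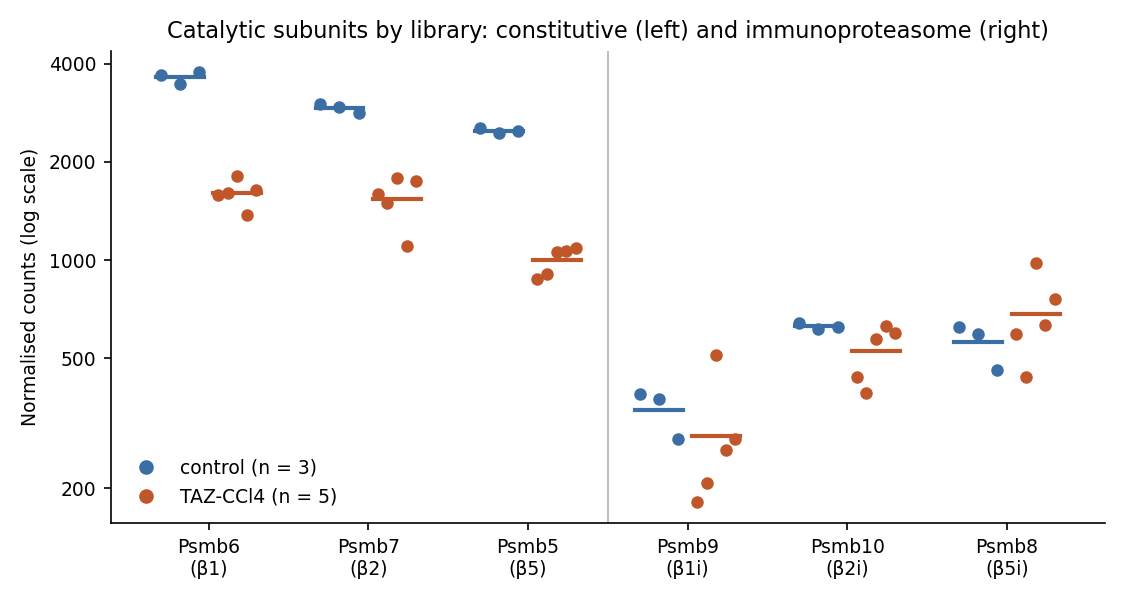
Normalised counts of the 3 constitutive (Psmb5, Psmb6, Psmb7) and 3 immunoproteasome (Psmb8, Psmb9, Psmb10) catalytic subunits on a log axis, 1 point per library, with the group means. The constitutive genes separate control from TAZ-CCl4 completely, and the immunoproteasome genes overlap.

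Each pair of counterparts was then compared within each library, which removes any factor applied to a whole library. In the controls Psmb8 stood at 24.8%, 24.2% and 18.6% of Psmb5, and in TAZ-CCl4 at 67.7%, 48.2%, 92.8%, 59.6% and 70.0%. The mean log2 ratio was higher by 1.56 ± 0.20 (SE) in TAZ-CCl4, or 2.96-fold (exact two-sided permutation test, p = 0.0357, adjusted over 5 ratios 0.0595). Every TAZ-CCl4 library was above every control.
Psmb9 stood at 10.5%, 10.9% and 7.53% of Psmb6 in the controls and at 11.5%, 12.9%, 28.3%, 19.1% and 17.2% in TAZ-CCl4. The difference in log2 ratio was 0.83 ± 0.28, or 1.78-fold (exact permutation p = 0.0357, adjusted 0.0595). The groups again did not overlap, but the lowest TAZ-CCl4 library (11.5%) was close to the highest control (10.9%).
Psmb10 stood at 21.3%, 20.8% and 22.1% of Psmb7 in the controls and at 27.6%, 26.4%, 32.2%, 57% and 34.3% in TAZ-CCl4. The difference was 0.67 ± 0.20, or 1.59-fold (exact permutation p = 0.0357, adjusted 0.0595), and it was 0.48 without the fourth TAZ-CCl4 library. The raw p of each pair is the smallest that the 56 splits of 3 and 5 libraries can give, and none passed 0.05 after adjustment. The denominators Psmb5, Psmb6 and Psmb7 fell (log2 fold changes -1.32, -1.18 and -0.94), beside a median of 0.03 for all genes. A gene at that median would therefore also stand higher against them. Psmb8 (0.24) lay above the median of all genes, and Psmb9 (-0.35) and Psmb10 (-0.27) lay below it. After quantile normalisation, an alternative added after the values were seen, the differences were 1.21 for Psmb8/Psmb5 without overlap (exact permutation p = 0.0357, adjusted 0.179), but 0.07 for Psmb9/Psmb6 (p = 1.0) and 0.20 for Psmb10/Psmb7 (p = 0.679), both with overlap.

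The mean log2 level of Psmb8, Psmb9 and Psmb10 less that of Psmb5, Psmb6 and Psmb7 ran from -2.78 to -2.49 in the controls and from -1.97 to -1.19 in TAZ-CCl4. The difference between the group means was 1.02, or 2.03-fold, and it was 0.49 after quantile normalisation. The median log2 fold change was -0.27 for the inducible set and -1.18 for the constitutive set, beside 0.03 for all genes. A gene at the median of all genes would therefore also stand higher against the constitutive set. The gap was narrowest in the third TAZ-CCl4 library and widest among them in the second.

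**Figure D3:**
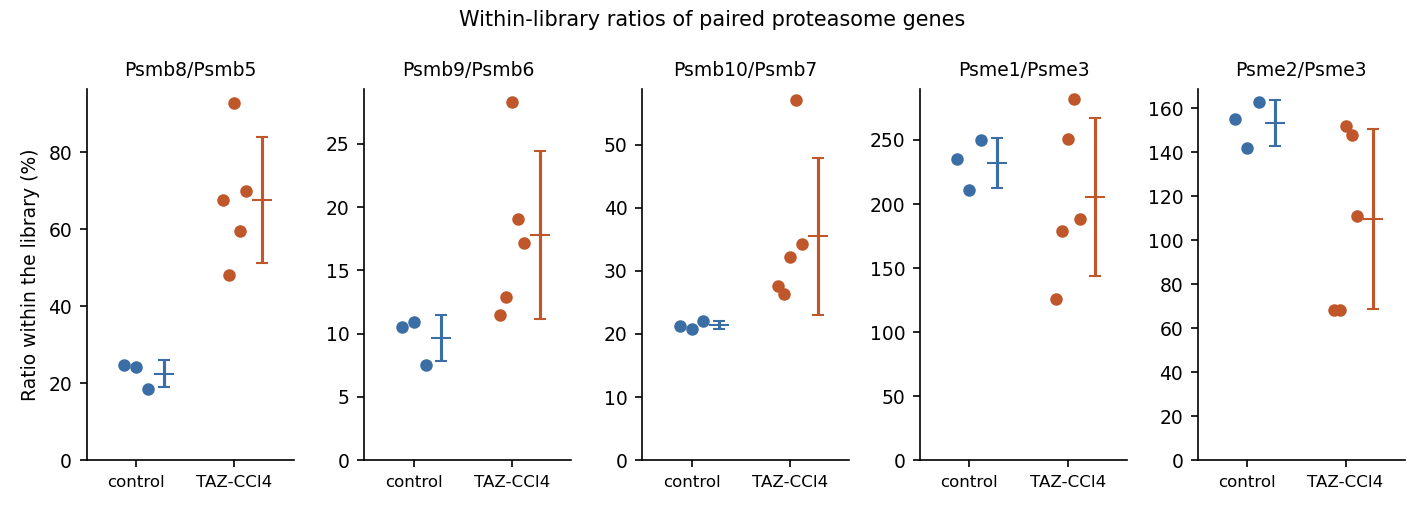
Within-library ratios of each immunoproteasome subunit to its constitutive counterpart, and of Psme1 and Psme2 to Psme3, in percent from 0, 1 point per library, with bars for the mean and SD of each group. The Psmb8/Psmb5 ratio runs from 18.6% to 24.8% in the controls and from 48.2% to 92.8% in TAZ-CCl4, while the Psme ratios overlap.

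Levels of different genes were set against each other per kilobase of the longest protein-coding transcript. On that scale Psmb8 made up 11% ± 1.51 (SD, n = 3) of the beta5 pair (Psmb8 plus Psmb5) in the controls and 26.9% ± 4.71 (SD, n = 5) in TAZ-CCl4. Psmb9 made up 5.38% ± 0.977 of the beta1 pair and then 9.42% ± 3.13. Psmb10 made up 15.9% ± 0.385 of the beta2 pair and then 23.5% ± 5.88. So with this length the constitutive transcript was the larger part at each site in every library. The shares depend on the length used. With merged exon length the Psmb10 share was 30.1% in the controls and 40.7% in TAZ-CCl4, where it reached 53.3% in the fourth library. A fixed length per gene cannot change the order of the libraries, so the same order at every length adds no support.

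In the ATPase ring of the 19S cap, which unfolds substrates, all 6 genes fell at the deposited scaling, with log2 fold changes from -0.84 (Psmc2) to -0.60 (Psmc3) and a spread of 0.09 (SD), and all 6 were higher at equal totals. Psmc2 had 2301, 2094 and 2153 normalised counts in the controls and 1186, 1116, 1185, 1530 and 1114 in TAZ-CCl4. Psmc3 had 2958, 2727 and 2676 and then 1894, 1955, 2061, 1375 and 2017. The groups did not overlap for any gene of the ring.

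Of the 11 non-ATPase subunits of the cap, 10 fell at the deposited scaling, and at equal totals 7 were higher and 0 lower. Psmd4, the ubiquitin receptor Rpn10, fell furthest of all members. It had 3064, 2846 and 2914 in the controls and 1058, 1007, 1274, 919 and 1016 in TAZ-CCl4, a log2 fold change of -1.49 ± 0.13 (adjusted p = 5.16e-06), or 35.7% of the control mean. At equal totals its log2 fold change was -0.24 and did not pass. Psmd14, the deubiquitinase Rpn11 that removes ubiquitin chains from substrates, went from 1166 ± 73.0 to 765 ± 93.6, a log2 fold change of -0.61 (adjusted p = 0.00216), and of 0.64 at equal totals. Psmd8, the lid subunit Rpn12, was the only gene of this group without a fall. It had 1925, 1989 and 1871 in the controls and 2737, 1929, 2081, 1739 and 2300 in TAZ-CCl4, a log2 fold change of 0.14 ± 0.15 (adjusted p = 0.422), and 1.40 at equal totals (adjusted p = 1.43e-05). Calls for Psmd2 and Psmd13 were weak. Psmd2 lost its call without the second control (adjusted p = 0.0686) and under the replicate block (0.0878), and Psmd13, whose groups overlapped, without the first control (0.152), the second control (0.112) or the second TAZ-CCl4 library (0.0571), with no filter (0.0507), without trend (0.0627) and under the block (0.0889).

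The 7 assembly chaperones of the 20S core and the 19S cap had a median log2 fold change of -0.29, beside -0.84 for the 31 constitutive 26S subunits, and this difference was not tested. Of the 3 that build the ATPase ring, only Psmd9 fell at the deposited scaling (log2 fold change -0.79 ± 0.18, adjusted p = 0.00302), and all 3 were higher at equal totals. Psmd10, gankyrin, had 215, 176 and 170 in the controls and 266, 158, 284, 255 and 295 in TAZ-CCl4, a log2 fold change of 0.40 ± 0.22 (adjusted p = 0.136). It was above all controls in every TAZ-CCl4 library but the second, and without that library it rose (0.56, adjusted p = 0.0112). Psmd5 had a log2 fold change of -0.22 ± 0.21 (adjusted p = 0.397). Of the 4 chaperones of the 20S core, Psmg3 (-0.74, adjusted p = 0.00413) and Psmg1 (-0.48, adjusted p = 0.0386) fell at the deposited scaling, while Psmg2 (-0.07) and Psmg4 (-0.29) did not pass, and all 4 were higher at equal totals. The Psmg1 call was lost without any 1 of the controls (adjusted p = 0.0637 to 0.123) and without the fourth TAZ-CCl4 library (0.0596).

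Of the 5 genes of the alternative caps and the inhibitor, 4 fell at the deposited scaling, and at equal totals 4 were higher and 0 lower. Psme1 and Psme2 form PA28 alpha-beta, the interferon-inducible cap that acts with the immunoproteasome, and lie 5.911 kb apart on chromosome 14. Psme2 had 1835, 1780 and 1724 in the controls and 846, 715, 1410, 1253 and 1144 in TAZ-CCl4, a log2 fold change of -0.77 ± 0.21 (adjusted p = 0.00866), and 0.48 at equal totals. Its near copy Psme2b was at 0 to 4.82 in the controls and 0 to 16.4 in TAZ-CCl4, and reads shared between them were not resolved. Psme1 had 2780, 2650 and 2656 and then 1562, 1873, 2325, 2392 and 1939, a log2 fold change of -0.43 ± 0.15 (adjusted p = 0.0279) and of 0.82 at equal totals. The Psme1 call was lost without any 1 of the controls (adjusted p = 0.0679 to 0.0886) and without the fifth TAZ-CCl4 library (0.0535). Psme3, which forms the nuclear cap PA28 gamma, had 1182, 1257 and 1060 and then 1238, 1046, 928, 847 and 1029 and did not pass (-0.20, adjusted p = 0.229). Psme4, the nuclear activator PA200, fell by 0.42 on the log2 scale (adjusted p = 0.0396), and stood at 0.83 at equal totals. Its call was lost without any 1 of the controls (adjusted p = 0.0577 to 0.124) and without the third (0.0549) or the fifth (0.0644) TAZ-CCl4 library. Psmf1, the inhibitor PI31, went from 716 ± 43.8 to 473 ± 47.4, a log2 fold change of -0.60 (adjusted p = 0.00211), and of 0.65 at equal totals.

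Within a library, Psme1 stood at 232% ± 20 of Psme3 in the controls and 205% ± 61.7 in TAZ-CCl4, a difference in log2 ratio of -0.23 ± 0.22 (exact permutation p = 0.536), which was 0.07 after quantile normalisation. Psme2 stood at 153% ± 10.6 and 110% ± 40.8 of Psme3, a difference of -0.57 ± 0.26 (exact permutation p = 0.143, adjusted over 5 ratios 0.179). Psme2 was at 68.3% and 68.4% of Psme3 in the first and second TAZ-CCl4 libraries and at 152% and 148% in the third and the fourth, so its ratio was spread wide within that group.

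To compare members with any factor per library removed, each gene's log2 level was also taken relative to the median of the 31 constitutive 26S subunits (the alpha, constitutive beta and 19S genes without Psma8) of the same library. This is a description without a test. Relative to that median 63.3% of all genes tested lay higher in every TAZ-CCl4 library than in every control, with a median shift of 0.92, so a higher relative level was common. Among the members 19 of 48 did so and 6 lay lower throughout, where 9.46% of all genes lay lower. The 31 genes that set the median are themselves members, and all 6 that lay lower are among them. The members' counts are therefore partly fixed by the choice of reference and cannot be weighed against the shares of all genes. Psmd10 shifted most, by 1.30 on the log2 scale or 2.46-fold, followed by Psmb8 (1.14, 2.20-fold) and Psmd8 (1.04, 2.06-fold). The TAZ-CCl4 and control libraries did not overlap for these. Psmb10 shifted by 0.62 (1.54-fold) without overlap, and Psmb9 by 0.54 (1.46-fold) with overlap, both below the median shift of 0.92 of all genes. After quantile normalisation the shifts were 1.10 for Psmd8, 0.76 for Psmb8, 0.53 for Psmd10, 0.24 for Psmb10 and -0.06 for Psmb9, and of these 5 only Psmd8 kept groups that did not overlap. At the deposited values, lower than the core throughout were Psmd4 (0.665-fold), Psmb5 (0.745-fold), Psma4 (0.768-fold), Psmb6 (0.82-fold), Psmd12 (0.837-fold) and Psma2 (0.853-fold). The summed level of the 31 genes was 72887, 71277 and 71179 in the controls and 36752 to 44268 in TAZ-CCl4. As a share of the library total it was 0.208% to 0.239% in the controls and 0.290% to 0.313% in TAZ-CCl4, so the sum fell and the share of the total was larger.

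**Figure D4:**
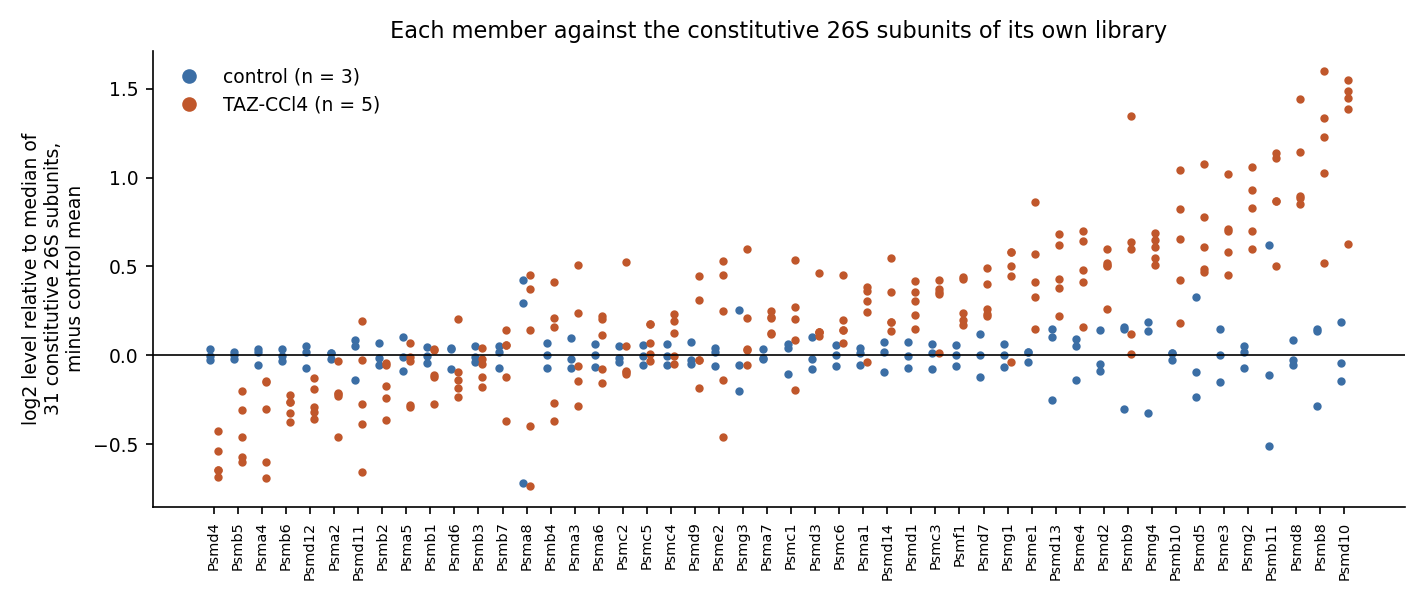
Log2 level of each of the 48 members relative to the median of the 31 constitutive 26S subunits of the same library, less the control mean of that gene, 1 point per library, ordered by the difference between the groups. Psmd10, Psmb8 and Psmd8 lie furthest to the right, and Psmd4 and Psmb5 furthest to the left.

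Genes that serve the proteasome but carry other symbols were read from a list of 21, of which 20 were in the table. At the deposited scaling 14 fell and 1 rose, with a median of -0.52, and at equal totals 16 were higher and 0 lower. So 70.0% fell at the deposited scaling, beside 29.8% of all genes tested. At equal totals 80.0% were higher, near the 76.3% of all genes. Pomp, the maturation factor of the 20S core, went from 2451 ± 300 to 1110 ± 128.0, a log2 fold change of -1.14 ± 0.14 (adjusted p = 4.90e-05), close to 0 at equal totals (0.11). Ubqln2, which shuttles ubiquitinated proteins to the cap, rose at both scalings, from 323 ± 54.5 to 1018 ± 560.0 (log2 fold change 1.54, adjusted p = 0.00184), with the fourth TAZ-CCl4 library at 2010.

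Of 7 genes that control proteasome transcription, 4 fell and 1 rose (2 without the fourth TAZ-CCl4 library) at the deposited scaling, and at equal totals 6 were higher and 0 lower. Of all genes tested 29.8% fell and 32.4% rose at the deposited scaling, and 76.3% were higher at equal totals. Nfe2l1 encodes NRF1, which induces proteasome genes when proteasome capacity is short. It had 1903, 2456 and 1657 in the controls and 2064, 1976, 1726, 1281 and 1495 in TAZ-CCl4 and did not pass (-0.23 ± 0.19, adjusted p = 0.298). Ddi2, the protease that cleaves NRF1 into its active form, fell by 1.59 on the log2 scale (adjusted p = 6.08e-05). At equal totals Ddi2 stood at -0.34 and did not pass (adjusted p = 0.114). Mafg, a small MAF partner, fell by 0.86 on the log2 scale (adjusted p = 0.00101) and stood at 0.39 at equal totals.

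Interferon genes were read next, because the inducible catalytic subunits are their targets. Of 15 tested interferon gamma pathway and target genes (of 17 listed, with Ifng and Ido1 under the filter), 8 rose and 0 fell at the deposited scaling, with a median of 0.63, and 14 were higher at equal totals. That is 53.3% and 93.3% of the list, beside 32.4% and 76.3% of all genes tested. Ciita, the MHC class II coactivator, rose from 8.02 ± 4.96 to 207 ± 125.0 (log2 fold change 4.49 ± 0.52, adjusted p = 4.23e-05), and Irf8, a transcription factor of myeloid cells, from 87.4 ± 6.88 to 458 ± 70.0 (2.37 ± 0.16, adjusted p = 1.82e-06). Both genes are known from leukocytes. Irf1 (0.34, adjusted p = 0.144) and Nlrc5 (-0.24, adjusted p = 0.441), which switch on class I genes, did not pass, although both were higher at equal totals. Ifng itself was at 0 to 4.65 in the controls and 0.581 to 6.23 in TAZ-CCl4.

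Of 11 type I interferon genes, 6 rose and 2 fell at the deposited scaling (0 fell without the first or the second control), and 10 were higher at equal totals, led by the antiviral genes Oas1a (2.68, adjusted p = 1.07e-04) and Mx1 (1.81, adjusted p = 0.00829). Of 11 genes of MHC class I peptide loading, which receive the proteasome's peptides, 2 rose and 4 fell, and 7 were higher at equal totals. At the deposited scaling 54.5% of the type I genes and 18.2% of the peptide loading genes rose, beside 32.4% of all genes. The shares that fell were 18.2% and 36.4%, beside 29.8%. At equal totals 90.9% and 63.6% were higher, beside 76.3%. B2m, the class I light chain, went from 50043 ± 2512 to 20106 ± 6606 (log2 fold change -1.37, adjusted p = 0.00119), and H2-K1, a class I heavy chain, from 29345 ± 852.0 to 13047 ± 3034 (-1.20, adjusted p = 6.89e-04), neither of which passed at equal totals. Tap1, which carries the peptides into the endoplasmic reticulum and adjoins Psmb9, had 475, 542 and 361 and then 540, 542, 1186, 570 and 917 (0.65, adjusted p = 0.0633).

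Markers of leukocytes rose at both scalings. The immunoproteasome genes passed as higher at equal totals, as did 76.3% of all genes, and not at the deposited scaling. The part of leukocytes in the catalytic ratios was not tested. The summed level of the 8 pan-leukocyte markers ran from 2235 to 2821 in the controls and was 7258, 4627, 9594, 6934 and 8606 in TAZ-CCl4. Most of the control sum was Lcp1 (1829, 2067 and 1812), the only marker of that list that did not pass (log2 fold change -0.01). The sum therefore understates the rise of the other markers. Lcp1 itself was also highest in the third TAZ-CCl4 library (2715) and lowest in the second (1121). Ptprc, which encodes CD45, rose from 106 ± 35.3 to 973 ± 314.0 (log2 fold change 3.17, adjusted p = 9.40e-06). The macrophage gene Cd68 rose (3.01, adjusted p = 2.94e-06), as did the T cell gene Cd3e (1.56, adjusted p = 0.0102), which stayed low at 19.9 to 33.9. Of 9 macrophage markers 6 rose and 1 fell (2 without the third or the fifth TAZ-CCl4 library), and of 9 T and NK cell markers 5 rose and 0 fell. At the deposited scaling 2 of 6 B and plasma cell, 2 of 4 dendritic cell, 4 of 4 neutrophil and 5 of 8 stellate cell and fibroblast markers rose with none falling, 2 of 6 endothelial markers rose and 2 fell, and 3 of 3 erythroid markers fell, where 32.4% of all genes rose and 29.8% fell. Only 1 B and plasma cell marker rose when any 1 control, or the third, the fourth or the fifth TAZ-CCl4 library, was left out, and 1 fell without the first control. The listed markers Prf1, Xcr1 and Ly6g were under the filter. The third TAZ-CCl4 library was highest, and the second lowest, both in the pan-leukocyte sum and in Psmb8 within that group, but Psmb9 was lowest in the first library (182) and Psmb10 highest in the fourth (630). The summed interferon gamma list was likewise highest in the third library (12981) and lowest in the second (7988), against 6816 to 7747 in the controls. Alb, the main secreted hepatocyte protein, did not pass (-1.16 ± 0.73, adjusted p = 0.19). Even so, its groups did not overlap, at 1165322 to 1588051 in the controls and 471110 to 785601 in TAZ-CCl4. Cyp2e1, a cytochrome that activates CCl4, fell from 165178 ± 10569 to 1174 ± 875.0 (-7.41, adjusted p = 1.09e-06).

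**Figure D5:**
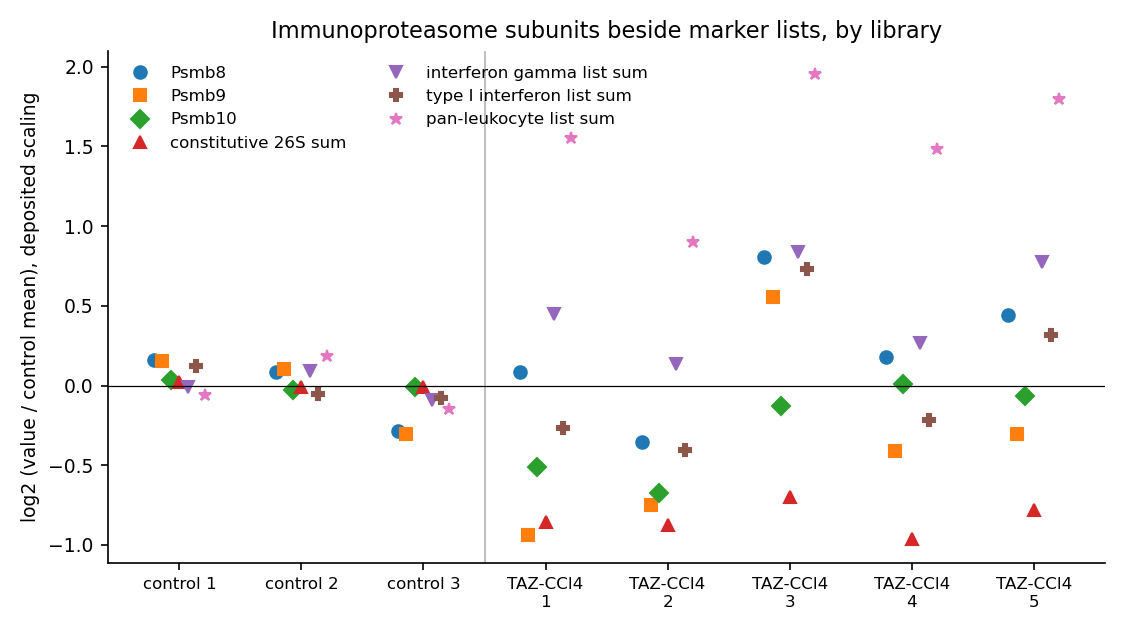
Log2 of each value over its control mean, by library, at the deposited scaling, for Psmb8, Psmb9, Psmb10, the summed 31 constitutive 26S subunits and the summed interferon gamma, type I interferon and pan-leukocyte lists. Psmb8, Psmb9 and the list sums are highest in the third TAZ-CCl4 library, and the constitutive sum is below every control in all 5 TAZ-CCl4 libraries. Most of the pan-leukocyte sum in the controls is Lcp1, which did not pass.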

How the data were processed

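The values are a signal per gene, estimated counts that the authors had scaled between libraries before they deposited them. The table's name gives kallisto and DESeq2, and the submitters' processing notes name DESeq2 and the mm10 build. The sources used here give no tool version, transcript annotation or strand setting. Whole reads could not be recovered from the low values: per library, 40.3% to 66.9% of those under 10 matched a multiple of the commonest step within 0.03. A count model was therefore not used. By that step, depth was about 18.6 to 24.9 M reads per control and 12.4 to 33.7 M per TAZ-CCl4 library.

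Samples were grouped by their labels. Values were taken as log2(value + 1), a scale that understates the change of low genes, and genes averaging 10 or more across libraries were tested with limma 3.58.1 (R 4.3.3, trend in the prior variance, two-sided, no covariate). Benjamini-Hochberg adjustment ran over all 14171 genes tested, with a threshold of 0.05. Adjusted p-values in the text are from limma unless an exact permutation test is named. That test (scipy 1.17.1, two-sided, 56 arrangements) was run on 5 within-library ratios. Gene positions and transcript lengths came from GENCODE M21 on mm10, and promoter sequences from RefSeq. The limma fit was tested on simulated data.

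The members, the 10 role groups, the 17 gene lists and the tests were chosen with earlier results of these data known. The level relative to the 31 constitutive 26S subunits and quantile normalisation of the ratios were added after the values were seen. The genes named are the catalytic subunits, caps, chaperones and a few regulators whatever their values, the largest rise and fall of each other role group, and from the lists the passing genes of largest change whose higher group mean reached 50. Psma2, Psma7, Psmd2, Psmd5, Psmd12 and Psmd13 were named after their values were seen. A few genes and 1 list that the rule names are not reported here. Other scalings, pseudocounts of 0.5 and 5, other filters, limma without trend, a replicate block and leaving out each library were tried as alternatives.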

Additional observations from a re-analysis of the deposited data

Results flagged for a closer look

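In 5 of 53 sets of 5 TAZ-CCl4 values examined (the members and the ratios), 1 library stood far from the other 4, judged by its gap to the nearest value over the whole range, and chance gives about 1 in 20 such sets. Psmc2, an ATPase of the 19S ring, was at 1530 normalised counts in the fourth library and at 1114 to 1186 in the others, while Psmc3, another ATPase of that ring, was at 1375 in the fourth and at 1894 to 2061 in the others. Both stayed below all controls. The ratio of Psmb10 to Psmb7 was 57% in the fourth library and 26.4% to 34.3% in the others. Psmd10 was at 158 in the second library and at 255 to 295 in the others. Psmg4, a chaperone of the 20S core, was at 125 in the third library and at 108 to 109 in the others. Its SD was only 7.62 in TAZ-CCl4, against 24.6 in the controls, so this flag rests on how close the other 4 lay.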

How the results depend on the processing

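Scaling changed the counts of calls. At equal totals 31 members were higher and 0 lower, and 10808 of all genes were higher and 903 lower. With totals equal once Mup and mitochondrial genes were left out, 12 members were higher and 6 lower (all genes 8912 and 1512). The 6 were Psma2, Psma4, Psmb5, Psmb6, Psmd4 and Psmd12. At equal upper quartiles 1 member was higher, and at quantile normalisation 1 was higher and 22 lower. Leaving out 1 library gave 0 to 1 members higher and 32 to 37 lower. After quantile normalisation the within-library differences were 1.21 (Psmb8/Psmb5), 0.07 (Psmb9/Psmb6), 0.20 (Psmb10/Psmb7), 0.07 (Psme1/Psme3) and -0.47 (Psme2/Psme3), and the mean over the 3 catalytic pairs was 0.49. The ratios of the catalytic pairs kept their directions without any 1 library (log2 differences 1.43 to 1.68 for Psmb8/Psmb5, 0.64 to 0.97 for Psmb9/Psmb6 and 0.48 to 0.76 for Psmb10/Psmb7), where the smallest possible p is 0.0571 or 0.0952. Same-numbered libraries did not deviate together (correlations -0.067, -0.064 and -0.088), and the replicate block gave 0 members higher and 33 lower and turned Psmg2 to 0.01. Psmd2, Psmd13, Psme4 (adjusted p = 0.134) and Psmg1 (0.0912) lost their calls under the block, and Psmd13, Psme4 (0.0545 and 0.0667) and Psmg1 (0.0508 and 0.0511) with no filter and without trend. With merged exon length the shares were 5.65% and 15.2% (Psmb8, control and TAZ-CCl4) and 30.1% and 40.7% (Psmb10). With no length correction they were 18.3% and 39.9% (Psmb8), 8.78% and 14.9% (Psmb9) and, in the controls, 17.6% (Psmb10).

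Of the genes named in the text, these changed the sign of the log2 fold change under other scalings. At equal totals they were Psma2 0.12, Psma7 0.54, Psmd2 0.83, Psmd5 1.03, Psmd12 0.10, Psmd13 0.82, Psmb6 0.07, Psmb7 0.31, Psmb9 0.89, Psmb10 0.98, Psme1 0.82, Psme2 0.48, Psme3 1.05, Psme4 0.83, Psmf1 0.65, Psmg1 0.77, Psmg2 1.17, Psmg3 0.51, Psmg4 0.95, Psmd14 0.64, Psma8 0.24, Psma1 0.61, Psmb2 0.18, Psmb4 0.38, Psmc2 0.41, Psmc3 0.65, Psmd9 0.46, Pomp 0.11, Nfe2l1 1.02, Nlrc5 1.01, Alb 0.09, Mafg 0.39 and H2-K1 0.05. With Mup and mitochondrial genes left out of the totals they were Psma7 0.12, Psmd2 0.41, Psmd5 0.62, Psmd13 0.40, Psmb9 0.47, Psmb10 0.56, Psme1 0.40, Psme2 0.06, Psme3 0.63, Psme4 0.41, Psmf1 0.23, Psmg1 0.35, Psmg2 0.76, Psmg3 0.09, Psmg4 0.53, Psmd14 0.22, Psma1 0.19, Psmc3 0.24, Psmd9 0.04, Nfe2l1 0.60 and Nlrc5 0.59. At quantile normalisation they were Psmd2 0.28, Psme1 0.19, Psme3 0.12, Psme4 0.06, Psmb11 -1.10, Psmc3 0.02, Nfe2l1 0.29, B2m 0.41, Alb 0.51 and H2-K1 0.37, and at equal upper quartiles Psmg2 0.13. Psmb11, at 0.00, was -0.00 with a pseudocount of 5 and -0.24 to 0.32 without 1 library. At equal totals the log2 fold changes of all genes move nearly alike, from -0.64 to 0.61 for Psma1 and from 0.24 to 1.49 for Psmb8. The sign changes at equal totals follow from that shift. Why the deposited totals differ between the groups was not tested, and depth differed between libraries.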
